A study of Pimephales promelas with 32 samples.

Results

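The genes described here are 111 gene models of the fathead minnow (Pimephales promelas) whose counts were higher in larvae kept in copper sulfate than in control larvae, and not clearly higher in larvae kept in the insecticide bifenthrin. They were chosen from 26150 models in the count table by their measured values. The mean count over all larvae had to lie from 50 to under 10000, the ratio of mean CPM (counts of a model per 1000000 counts of the larva) between copper sulfate and control larvae had to be 1.3 or more, at least 6 of the 11 copper sulfate larvae had to exceed the highest control larva, and the bifenthrin mean could be at most 15% above the control mean. The ratios and the separation from controls therefore describe the members and are given without a test.

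RNA-seq was run on whole single larvae: 11 control larvae, 11 larvae at 40 µg/L copper sulfate and 10 larvae at 3.2 µg/L bifenthrin, each after 48 h. All groups, controls included, received 0.002% DMSO in 100 mL of water at 25 °C, with 10 larvae in each of 5 beakers per treatment. The age label gives 48 h post hatch and the treatment protocol 96 h post hatch, and the labels do not say which larvae shared a beaker. The study's question was whether expression-based classifiers respond specifically to chemicals with unlike modes of action. Totals ranged from 10655113 to 17993699 counts per larva, and each group was spread over sequencing lanes 6 and 7. Because whole larvae were sequenced, a change in the number of cells of a type and a change in RNA per cell cannot be told apart.

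Copper is an essential metal and a cofactor of enzymes of respiration and of antioxidant defence. In excess it enters fish mainly through the gill, where it disturbs sodium uptake, and inside cells it is bound by glutathione and metallothioneins and can promote oxidative damage to proteins and lipids. Bifenthrin is a pyrethroid, an insecticide class that keeps voltage-gated sodium channels of excitable cells open.

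The count table pairs 106 of the 111 members with a UniProt protein accession and lists no entry for the other 5. An entry was missing for 4.50% of the members and for 5.18% of all 16457 models in the same range of mean counts. None of the members carries an enzyme class number, and 0 of the model numbers in the whole table match the RefSeq gene table of the species. The files give no protein names, so the members are called by model number and accession, and no role is given to them.

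The copper conditions alone were met by 303 models, of which 192 were left out because their bifenthrin mean was over 15% above the control mean. The members are the remaining 36.6%. Their copper sulfate to control ratio ran from 1.302 to 4.64 with a median of 1.41, whereas the median of all 16457 models in the range was 0.946. Most members were thus raised by a small factor, with 77 below a ratio of 1.5 and 4 at 2 or more. The bifenthrin to control ratio of the members ran from 0.445 to 1.145 with a median of 1.03, and the median of all models in the range was 0.942. Their mean counts ran from 51.3 to 6058 with a median of 689.7 counts per larva.

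**Figure D1:**
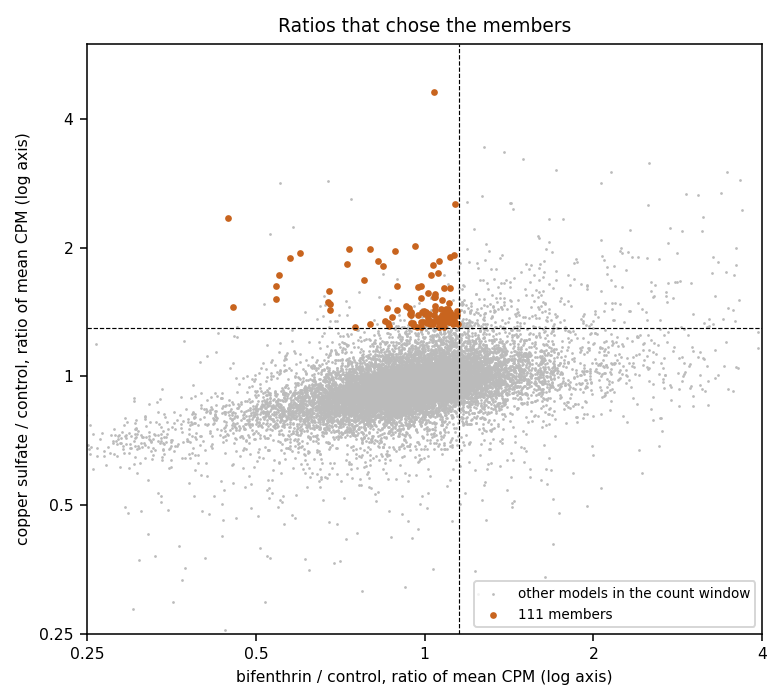
Each point is 1 gene model in the range of mean counts, with its bifenthrin to control ratio (x) and its copper sulfate to control ratio (y) of mean CPM on log axes; dashed lines mark the limits of the rule, 15% above control on x and a ratio of 1.3 on y, and 100 models lie outside the axes. The 111 members (orange) lie in the corner above the one and left of the other, most of them close to the lower limit. Another 97 models met both limits but had too few copper sulfate larvae above the highest control to be members.

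Of the members, 3 stood clear of the control range in every copper sulfate larva. With TMM scaling, which sets libraries on the bulk of genes rather than on their totals, 5 members did so. The share of all models at that scaling is not given here, so nothing is read from this count. FMg021830 (accession Q9PVK5) ran from 98.0 to 176 CPM in controls, with a median of 137, and from 187 to 427 CPM in copper sulfate larvae, with a median of 248. In bifenthrin larvae it stayed at 90.4 to 153 CPM, with a median of 117, inside or just below the control range. The mean was 137 ± 23.8 CPM in controls (SD, n = 11) and 269 ± 68.7 CPM in copper sulfate larvae (SD, n = 11), a ratio of 1.97. The lowest copper sulfate larva, replicate 1, still exceeded the highest control, replicate 5.

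FMg008354 (F1QBP1) showed the same separation at a smaller ratio. Its level was 49.5 to 71.2 CPM in controls (median 58.8), 74.2 to 132 CPM in copper sulfate larvae (median 91.4) and 42.3 to 78.3 CPM in bifenthrin larvae (median 61.8). Copper sulfate and bifenthrin larvae overlapped here, since 1 bifenthrin larva, replicate 4, lay above the highest control. The copper sulfate to control ratio was 1.63.

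FMg000104 (Q566S4) ran from 95.3 to 147 CPM in controls (median 132), from 150 to 228 CPM in copper sulfate larvae (median 199) and from 105 to 181 CPM in bifenthrin larvae (median 144). Of the bifenthrin larvae 4 exceeded the highest control, although the ratio of means, at 1.105, kept the model among the members. Its copper sulfate to control ratio was 1.49. Among all 16457 models in the range of counts, 0.182% had all 11 copper sulfate larvae above the highest control.

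Complete separation was thus the exception among the members. A further 27 members had 10 of 11 copper sulfate larvae above the highest control, 61 had 7 to 9, and 20 had just the 6 that the rule demanded. At least 10 larvae lay above in 27.03% of the members and in 0.565% of the models in the range, and at least 6, as the rule demands of every member, in 2.79% of the models in the range. Nothing is read from this contrast, which the rule itself produces.

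The highest ratio belonged to a member with a wide spread. FMg013980 (A0A0R4I9J2) ran from 2.39 to 27.2 CPM in controls, with a median of 13.2, and from 14.6 to 169 CPM in copper sulfate larvae, with a median of 63.2. In bifenthrin larvae it ran from 3.00 to 31.1 CPM, with a median of 11.5, a range that overlaps nearly all of the control range. The means were 13.4 ± 9.33 CPM in controls (SD, n = 11) and 62.3 ± 45.7 CPM in copper sulfate larvae (SD, n = 11), a ratio of 4.64. Of the copper sulfate larvae 8 lay above the highest control and 3 inside the control range, and replicate 6 was the highest.

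FMg002984 (Q6PH56) was also highest in copper sulfate replicate 6, at 42.0 CPM, with replicate 11 next at 19.2 CPM. Its other groups of values were 3.08 to 11.1 CPM in controls (median 6.51) and 3.399 to 11.9 CPM in bifenthrin larvae (median 6.92), and the copper sulfate larvae ran from 7.76 CPM upward with a median of 15.2. The ratio was 2.54, with 7 copper sulfate larvae above the highest control.

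FMg017635 (Q9JMC3) moved apart in both directions. It ran from 11.4 to 34.5 CPM in controls (median 23.4), from 15.5 to 110 CPM in copper sulfate larvae (median 47.5) and from 4.15 to 14.8 CPM in bifenthrin larvae (median 10.8). The copper sulfate to control ratio was 2.34 and the bifenthrin to control ratio 0.445, the lowest of all members. Of the copper sulfate larvae 7 exceeded the highest control, and 7 of the 10 bifenthrin larvae lay below the lowest control.

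FMg014163 (E7F0X0) was a member with few counts, at a mean of 83.3 counts per larva. It ran from 1.00 to 7.84 CPM in controls (median 3.28), from 3.39 to 16.3 CPM in copper sulfate larvae (median 9.01) and from 2.45 to 6.22 CPM in bifenthrin larvae (median 4.23). All 10 bifenthrin larvae lay inside the control range, and 8 copper sulfate larvae lay above it, at a ratio of 2.02.

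FMg025044 (Q6PH19) ran from 124 to 239 CPM in controls (median 190.2), from 190.4 to 533 CPM in copper sulfate larvae (median 372) and from 77.6 to 237 CPM in bifenthrin larvae (median 143). The highest control was exceeded by 9 copper sulfate larvae, and 4 bifenthrin larvae lay below the lowest. The ratios were 1.99 for copper sulfate and 0.799 for bifenthrin.

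FMg014504 (Q561U1) reached 11.5 CPM in copper sulfate larvae, from a lowest value of 2.97 and with a median of 8.79, against 1.77 to 7.38 CPM in controls (median 4.02). Bifenthrin larvae were tightly grouped at 2.02 to 3.97 CPM (median 2.98). FMg017839, a model without an accession, ran from 5.11 to 10.2 CPM in controls (median 5.82), from 8.39 to 19.6 CPM in copper sulfate larvae (median 12.7) and from 0.845 to 8.62 CPM in bifenthrin larvae (median 3.65). For this model 9 copper sulfate larvae lay above the control range and 8 bifenthrin larvae below it. The copper sulfate to control ratios were 1.98 and 1.94.

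**Figure D2:**
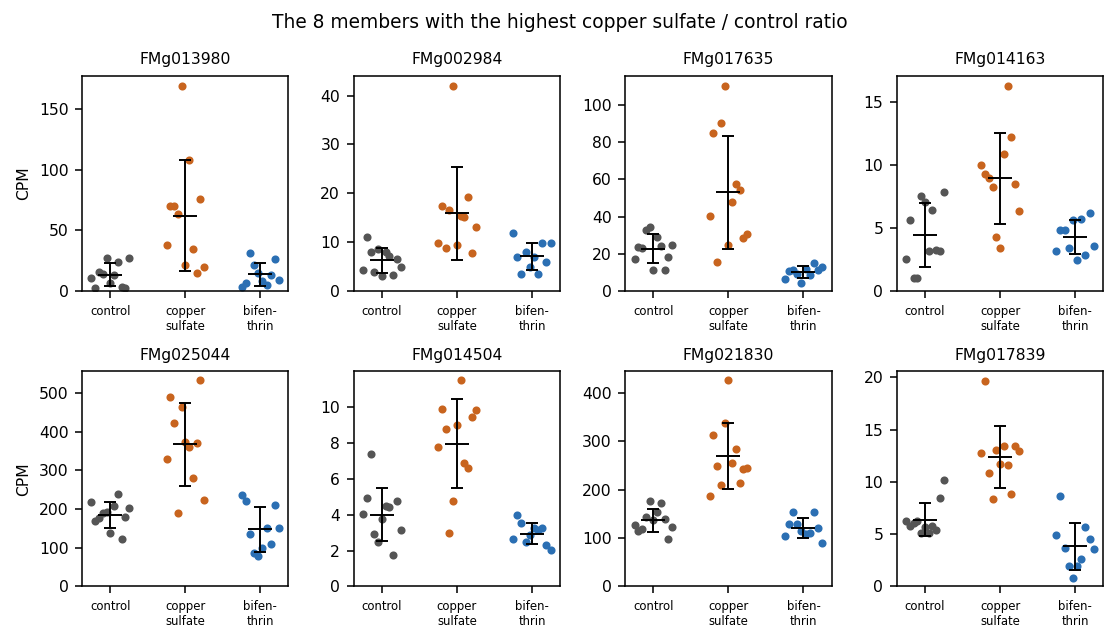
CPM per larva (points) with mean and SD (black) in control, copper sulfate and bifenthrin larvae for the 8 members with the highest copper sulfate to control ratio; each panel has its own linear axis from 0. FMg021830 is the panel without overlap between copper sulfate and control larvae, and in FMg013980 the copper sulfate larvae run from 14.6 to 169 CPM.

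The 3 members with the most counts had ratios near the members' median or above it. Gene lengths are not given, so levels are not compared between genes. FMg002698 (Q6PC77) ran from 294 to 463 CPM in controls (median 365), from 447 to 726 CPM in copper sulfate larvae (median 522) and from 319 to 462 CPM in bifenthrin larvae (median 379). Its bifenthrin larvae all lay inside the control range, and 10 of 11 copper sulfate larvae lay above it. The mean was 379 ± 49.4 CPM in controls (SD, n = 11) and 532 ± 75.5 CPM with copper sulfate (SD, n = 11), a ratio of 1.40.

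FMg020681 (Q6PFP3) had a single high control, replicate 14. The controls ran from 274 to 502 CPM (median 327), the copper sulfate larvae from 414 to 736 CPM (median 507) and the bifenthrin larvae from 280 to 509 CPM (median 345). Only 6 copper sulfate larvae exceeded that control, although the ratio of means was 1.54. FMg016579 (Q6DH16) ran from 251 to 408 CPM in controls (median 325), from 404 to 532 CPM in copper sulfate larvae (median 450.5) and from 258 to 459 CPM in bifenthrin larvae (median 387). Here 10 copper sulfate larvae and 2 bifenthrin larvae lay above the highest control.

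The same accession was listed for more than 1 member in 2 cases. Q566S4 belongs to FMg000104, described above, and to FMg000086, which ran from 54.1 to 96.7 CPM in controls (median 63.7), from 87.8 to 119 CPM in copper sulfate larvae (median 97.7) and from 54.6 to 92.3 CPM in bifenthrin larvae (median 68.8). The copper sulfate to control ratios of this pair were 1.49 and 1.46. A8E5B7 belongs to FMg016435 and FMg016436, the only 2 members with consecutive model numbers.

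FMg016435 ran from 141 to 189 CPM in controls (median 164) and from 161 to 260 CPM in copper sulfate larvae (median 217), with a ratio of 1.34. FMg016436 ran from 6.15 to 12.8 CPM in controls (median 9.59) and from 11.2 to 16.7 CPM in copper sulfate larvae (median 13.8), with a ratio of 1.40. In bifenthrin larvae the pair stood at ratios of 0.987 and 0.943 to control. No other model of the table carries either accession. How the counting handled reads that match several models is not given in the sources used here, so models of 1 accession may share reads and are uncertain as separate genes.

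The members differed in their bifenthrin to control ratio, whose median over all models in the range was 0.942. With limits set after the data were seen, 65 members had a bifenthrin to control ratio above 1 (median 1.07), 23 lay between 0.870 and 1 (median 0.957), and 23 lay below 0.870 (median 0.727). The rule used the same ratios and the highest control larva, so the comparison of these classes is a description and nothing is read from it. The copper sulfate to control ratio had a median of 1.39 in the first class, 1.41 in the second and 1.59 in the class below 0.870. In that last class, 1 of the 23 members had 10 or more copper sulfate larvae above the highest control, against 21 of 65 and 8 of 23 in the others. Its members also varied more between larvae, with a median coefficient of variation of 22.3% in controls and 29.4% in copper sulfate larvae, compared with 14.3% and 15.4% among the 65 members above 1. They also had fewer counts, with a median mean count of 376 against 1199 counts per larva, and the part of depth in their spread was not tested.

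FMg000282 (Q6DGE9) was the 1 member whose 10 bifenthrin larvae all lay below the lowest control, and was picked out after its values were seen. It ran from 24.2 to 40.8 CPM in controls (median 32.6), from 33.1 to 84.9 CPM in copper sulfate larvae (median 45.2) and from 9.14 to 19.9 CPM in bifenthrin larvae (median 16.2). The groups thus lay in the order bifenthrin, control, copper sulfate, with overlap only between the last 2. Among all models in the range, 4.98% had all bifenthrin larvae below the lowest control, against 0.901% of the members.

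**Figure D3:**
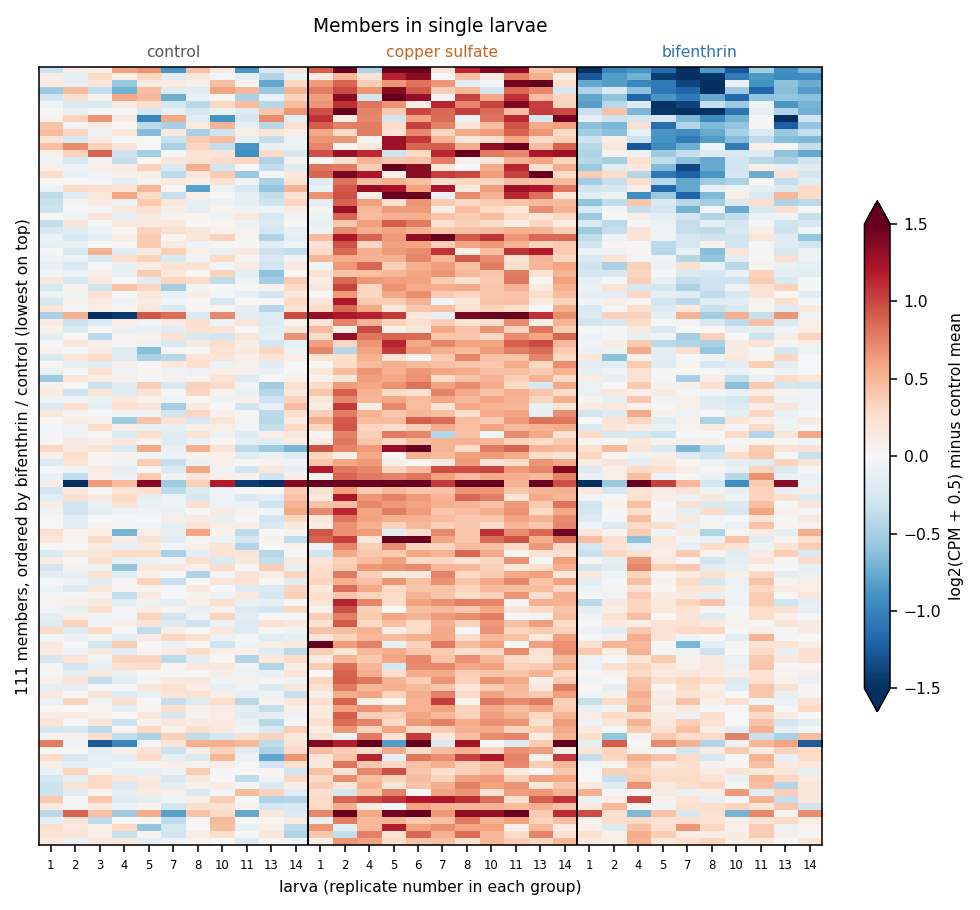
Each row is 1 of the 111 members, ordered from the lowest to the highest bifenthrin to control ratio, and each column is 1 larva, grouped as control, copper sulfate and bifenthrin; the colour is log2(CPM + 0.5) minus the control mean, cut at -1.5 and 1.5. Copper sulfate larvae are red in nearly all rows, bifenthrin larvae are blue in the upper rows and near white below, and bifenthrin replicates 4 and 11 are light red in many of the lower rows.

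The count model, edgeR's quasi-likelihood test with TMM scaling and Benjamini-Hochberg adjustment over 21174 tested genes, was read for the members as a description, since the same contrasts chose them. All 111 members passed its filter on low counts. For copper sulfate against control 109 members were called higher and 0 lower at an adjusted p under 0.05, where 3.58% of all tested genes were called higher and 1.99% lower. FMg014865 and FMg019416 were the 2 that were not called. When bifenthrin was set against copper sulfate, 107 members were called lower and 0 higher, where 17.1% of all tested genes were called lower and 14.9% higher.

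For bifenthrin against control, 12 members were called lower, where 20.2% of all tested genes were called lower. Another 9 members were called higher, where the share of all tested genes was 18%, so the phrase "not raised by bifenthrin" does not hold for every member under this scaling. Their log2 fold changes were small, from 0.20 in FMg016203 (E7F2S4) to 0.27 in FMg004606 (E7F2Y6). All 9 had a bifenthrin to control ratio above 1 in the values the rule used, and the 12 called lower all had a ratio below 0.870. The log2 fold changes of these 12 ran from -1.17 in FMg017635 to -0.27 in FMg012378 (Q6DC72).

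Copper sulfate larvae differed in how many members they held above the highest control, within a rule that demands at least 6 such larvae of every member. The number of members above the highest control was lowest in copper sulfate replicate 1, at 48 of 111, and highest in replicates 2 and 6, at 93 each, with a median of 86. Among all models in the range, 5.13% lay above the highest control in replicate 1, 8.77% in replicate 2 and 6.78% in replicate 6. The median of the members' log2 differences from the control mean was 0.27 in replicate 1 and 0.76 in replicate 2, and lay from 0.46 to 0.55 in the other 9 larvae.

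Bifenthrin larvae were uneven in these genes. In 8 of the 10 larvae 5 to 13 members, or 4.50 to 11.7% of the members, lay above the highest control, where 11.9 to 16.1% of all models in the range did so. Replicates 4 and 11 stood apart with 45 and 28 members, or 40.5% and 25.2% of the members, where 12.2% and 12.4% of all models lay above the highest control. No bifenthrin larva exceeded the highest control in 50 members, or 45.0%, against 65.8% of the models in the range. The most bifenthrin larvae above the highest control in any member was 5 of 10. The rule limited the bifenthrin mean and used the highest control larva. These shares are therefore a description, and nothing is read from their distance to those of all models.

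The members' summed level is a description too, since the rule used the values that enter it. Controls ran from 7719 to 9731 summed CPM (median 8720), copper sulfate larvae from 11170 to 15126 (median 12670) and bifenthrin larvae from 8265 to 10437 (median 8689). Control and bifenthrin larvae overlapped almost fully, and the copper sulfate larvae lay above both, as members chosen by this rule tend to. Bifenthrin replicates 4 and 11, at 10437 and 10175, lay above the highest control. With TMM scaling, at 10237 and 10200, they lay below it, at 10346. Bifenthrin larvae then ran from 8466 to 10237 and controls from 7383 to 10346. The members' median bifenthrin to control ratio was 1.08 with TMM scaling, against 1.03 in CPM. Over all models in the range these medians were 0.989 and 0.942. Nothing is read from these values.

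**Figure D4:**
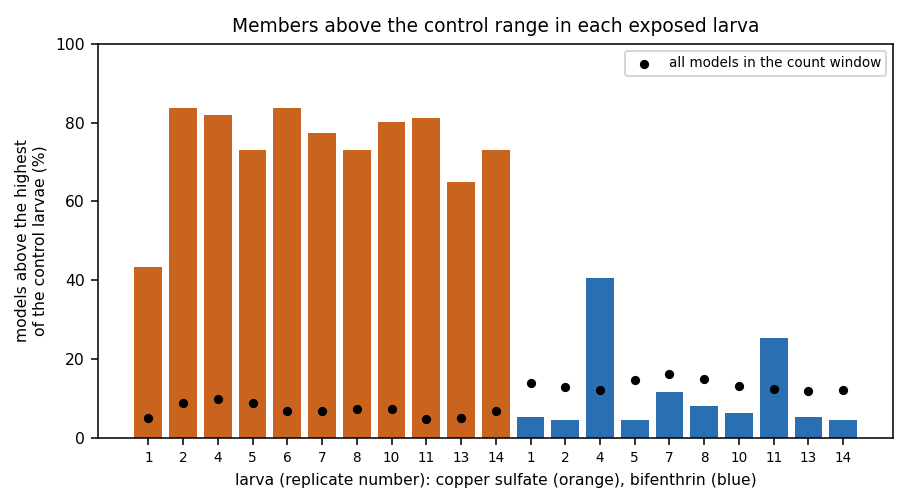
Bars give, for each copper sulfate (orange) and bifenthrin (blue) larva, the share of the 111 members above the highest of the 11 control larvae in percent; black points give the same share among all 16457 models in the range of counts. Copper sulfate bars reach from 43.2 to 83.8%, and among bifenthrin larvae replicates 4 and 11, at 40.5 and 25.2%, stand above their points.

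The members did not all peak in the same larva, but 1 larva held the maximum more often than any other. Copper sulfate replicate 2 was the highest of its group in 40 members, or 36.0%. Replicate 6 was so in 14, or 12.6%, replicate 5 in 13, or 11.7%, and replicate 1 in 1, or 0.901%. Over all models in the range these larvae were the highest in 11.5, 7.72, 16.4 and 7.57%. Among controls, replicate 14 set the maximum in 25 members, or 22.5%, and replicate 5 in 19, or 17.1%, beside 10.1% and 6.93% of all models in the range. The rule used the values of these same larvae, so a larva high in a model helped that model to qualify. The shares are a description, and nothing is read from their distance to those of all models. Single members differed: copper sulfate replicate 7 held the maximum of FMg021830 at 427 CPM and stood at only 21.6 CPM in FMg013980, inside its control range.

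Copper sulfate replicate 2 and control replicate 14 also had the lowest TMM factor of their groups, at 0.877 and 0.941. With TMM scaling, a description added after the data were seen, replicate 2 lay above the highest control in 103 members, or 92.8%. Over all models in the range its share was then 18.2%, compared with 8.77% in CPM. Under this scaling replicate 2 was the highest of its group in 54 members, and control replicate 14 set the control maximum in 38. The shares of all models for these 2 counts are not given here. The part of library composition in these shares was not tested. Without copper sulfate replicate 2 the median copper sulfate to control ratio of the 111 members was 1.39 and the lowest was 1.23.

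The median coefficient of variation of the members was 15.3% in controls, 17.1% with copper sulfate and 17.5% with bifenthrin, beside 17.6, 17.5 and 15.2% over all models in the range. The rule used the highest control larva and so bears on the spread of the members, and nothing is read from these values.

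Sequencing lane was tested for every gene. It did not enter the rule, but the rule used the same larvae. In the library labels another tag changes with lane in every larva, so lane and tag cannot be told apart. Lane 6 held 6 control, 5 copper sulfate and 5 bifenthrin larvae, and lane 7 held 5, 6 and 5. No member and none of the 21174 tested genes was called for lane by edgeR's quasi-likelihood test (smallest adjusted p among members 0.256), and 0% were therefore called in the background. At an unadjusted p under 0.05 there were 23 members, or 20.7%, and 2516 of all tested genes, or 11.9%. Of the 23, 21 were higher in lane 7, and of the 2516, 1454 were. The median log2 difference of the members between lane 7 and lane 6 was 0.10, against 0.0046 over all tested genes. Copper sulfate replicates 2 and 6, with the most members above the highest control, were in lane 7, and replicate 1, with the fewest, in lane 6. The part of these larvae in the lane difference was not tested. DESeq2 and limma-voom likewise called 0 members for lane, with 22 and 24 at an unadjusted p under 0.05. Over all 21174 tested genes, 2577 and 2608 were under that limit, and DESeq2 called 19 and limma-voom 0.

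A dependence of the copper sulfate difference on lane was called for 0 members and 0% of all tested genes (edgeR, smallest adjusted p 1.00), with 4 members, or 3.604%, and 2.48% of all tested genes at an unadjusted p under 0.05. DESeq2 and limma-voom also called 0 members, with 4 each at an unadjusted p under 0.05, where 529 and 545 of all tested genes were under that limit. Within lanes the median copper sulfate to control ratio was 1.39 in lane 6 and 1.41 in lane 7. The ratio was above 1 in both lanes in 111 of 111 members and at or above 1.3 in both lanes in 76. The rule demanded a ratio of 1.3 or more over these same larvae, so ratios above 1 in each lane were likely in advance. Nothing is read from them. FMg017635 differed most visibly among the 8 highest, with 1.58 in lane 6 and 2.83 in lane 7, and FMg014163 had 2.65 and 1.56.

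**Figure D5:**
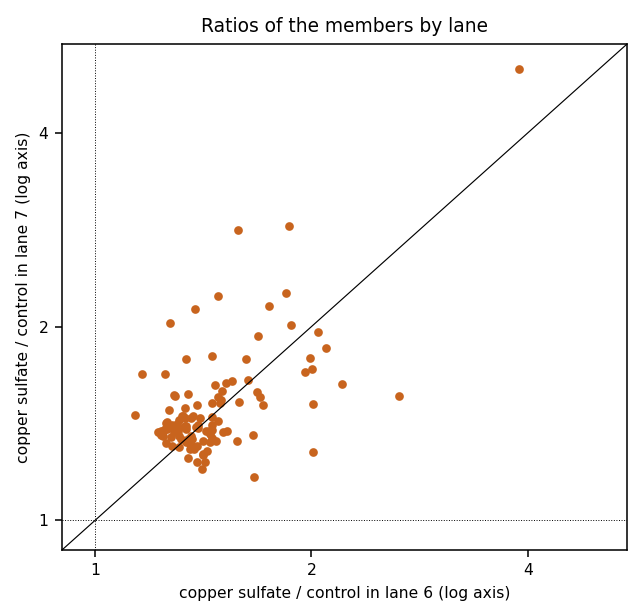
Each point is 1 of the 111 members, with its copper sulfate to control ratio of mean CPM among lane 6 larvae (x) and among lane 7 larvae (y) on log axes; the solid line marks equal ratios and dotted lines a ratio of 1. All points lie above 1 on both axes, and 46 members had the higher ratio in lane 6. The rule used the same larvae, so points above 1 were likely in advance.

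Members close to a limit show how the selection was bounded. At the lower limit of mean counts, FMg022305 (Q9UII6) was inside with 51.3 counts and FMg013563 (Q1LW01) outside with 49.8 counts. At the copper sulfate to control ratio, FMg025527 (A4IG40) was inside with 1.302 and FMg015604 (X1WBS5) outside with 1.299, and 91 models missed this limit alone. At the bifenthrin to control ratio, FMg017298 (Q7ZUS9) was inside with 1.145 and FMg002463 (Q7ZV39) outside with 1.153, and 192 models missed this limit alone.

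At the number of larvae, FMg019416, with no accession, was inside with 6 copper sulfate larvae above the highest control, and FMg013561 (Q1LW01) was outside with 5, although its copper sulfate to control ratio was 2.87. FMg013561 and FMg013563 carry the same accession, missed the rule by different limits and had copper sulfate to control ratios of 2.87 and 2.39 and bifenthrin to control ratios of 0.674 and 0.382. At the upper limit of counts FMg002698 was inside with 6058 counts, and FMg009390 (Q8QGV5), at 20256 counts, a ratio of 1.31 and 9 copper sulfate larvae above the highest control, was the 1 model left out by that limit alone.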

How the data were processed

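The authors deposited 1 table of raw counts, whole numbers per gene model and larva with no normalization. Tools listed in the submitters' processing notes are bcl2fastq 2.19.1, STAR and limma, without their settings. Genome build, annotation, counter and strandedness are not stated there. All 32 columns were matched to larvae through the description field, leaving 0 unmatched. Groups and replicate numbers came from the titles and lanes from the descriptions.

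CPM was computed as the count divided by the larva's total. The members were selected by the rule given in the report. The members, the lists and the naming rule were chosen with earlier results of these data known. Named members are the 8 highest ratios, those with all 11 copper sulfate larvae above the controls, the 3 with the most counts, those sharing an accession, and those next to each limit; others were picked after their values were seen. Lists of 49 enzyme class numbers could not be applied, since 0 models carry them.

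Genes were filtered with filterByExpr and tested with edgeR 4.0.16 (R 4.3.3), TMM scaling, group and lane as terms, all 32 larvae in 1 fit. Alternatives were DESeq2 1.42.0, limma-voom (limma 3.58.1), no filter, no lane term, a replicate block, fits of 2 groups, other limits and scalings of the rule, and leaving out larvae. The tests were checked on simulated counts. No 2 larvae looked like 1 library: over 496 pairs the lowest chi-square per degree of freedom was 9.75. Each treatment had 5 beakers for the 10 or 11 larvae sequenced, so some larvae of each group shared a beaker. The labels do not place larvae in beakers. The p-values therefore measure the spread between these larvae, the spread between beakers was not estimated, and the p-values may be too small.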

Additional observations from a re-analysis of the deposited data

Results flagged for a closer look

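Groups of 11 larvae were not examined for single distant values. Of 23 measures examined in the 10 bifenthrin larvae, 1 had a larva far from the others, about as many as chance gives (1 in 20). FMg025527 stood at 11.0 CPM in bifenthrin replicate 4, while the other 9 bifenthrin larvae lay between 5.33 and 7.57 CPM. That value lies inside the control range of 6.61 to 11.8 CPM.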

How the results depend on the processing

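The number of members depended on the limits of the rule. It was 167 with a copper sulfate to control ratio of 1.2 and 34 with 1.5, 67 when 8 larvae had to exceed the highest control, and 66 when the bifenthrin mean could be at most 5% above control, in place of 111. The other 9 settings gave 105 to 157 members. TMM scaling gave 128 members, of which 82 were among the 111, and 21 of the 111 then had a bifenthrin mean over 15% above control. Lane 6 alone gave 132 members (71 shared) and lane 7 alone 157 (86 shared). In these runs the limit differed: a majority of the lane's copper sulfate larvae had to exceed the highest of its 6 or 5 controls. These numbers are therefore not like for like with 111. Without each larva in turn the number ran from 92 (copper sulfate replicate 2) to 133 (control replicate 14), and 68 members were kept in all 32 cases. The limit of 6 copper sulfate larvae was kept when 1 of the 11 was left out. Each of the 20 members with just 6 above was thus bound to be lost without any of those 6. Leaving out a control could only keep or lower the highest control. These numbers are therefore not like for like with 111 either. For 20 named members the copper sulfate to control ratio stayed above 1 in all 27 settings tried. These settings used the larvae on which the rule demanded a ratio of 1.3 or more, or a part of them. Ratios above 1 were therefore likely in advance, and nothing is read from them. The members called for copper sulfate against control numbered 104 to 111 in 6 settings and 107 to 110 without single larvae. Those called for bifenthrin against control numbered 16 to 25, and those for bifenthrin against copper sulfate 100 to 107. Over all genes, these settings called 725 to 1483, 7477 to 8290 and 6096 to 6951 genes for these contrasts in turn. They tested 20661 to 25592 genes. Without single larvae 923 to 1376 genes were called for copper sulfate against control. The same contrasts chose the members, so these counts are a description. Same-numbered larvae of copper sulfate and control groups did not deviate together (median r = 0.016 over 10 pairs, -0.18 to 0.19), nor did those of control and bifenthrin groups (median r = -0.03). For copper sulfate and bifenthrin the median r was 0.036, with 5 of 10 same-numbered pairs over 0.1 and 21 of 100 unlike ones. Not every pair was over 0.1 in any of these, so the numbers were not taken as pairs. A weaker shared deviation would miss that bar, so the bar cannot decide on it. Same-numbered larvae were always in the same sequencing lane, and whether they shared other handling was not tested. With a replicate block 104, 16 and 102 members were called, in the order given, beside 725, 7477 and 6096 of all 21098 tested genes. That fit had no lane term and left out control replicate 3 and copper sulfate replicate 6, whose numbers are missing from other groups.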
